A study of Homo sapiens with 4 samples.

Results

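The genes described here are 38 human genes listed for mitochondrial protein import and folding, out of 19663 protein-coding genes. Most of their products carry nuclear-encoded proteins into mitochondria or fold or degrade them there. The acidic matrix protein C1QBP and PHB2, a scaffold of the inner membrane, are on the list too. The genes are a list of names, and binding of the transcription factor c-MYC was read for each from the chromatin immunoprecipitation sequencing (ChIP-seq) peaks at its promoter. A promoter peak is one whose summit, the base with the most sequenced tags, lies at most 1 kb from the start (TSS) of a protein-coding GENCODE transcript of the gene. The study profiled MIA PaCa-2, an established line of pancreatic ductal adenocarcinoma cells, after 8 h in the solvent DMSO, in AMG510 at 100 nM or in the MEK inhibitor trametinib at 10 nM. One c-MYC library was made from cells in each of these conditions, and a further library from the DMSO cells used non-specific immunoglobulin (IgG), 4 libraries in all. The cells are a single line without genetic change between the groups, and peak lists hold no expression values against which its identity could be checked.

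With 1 library per group, every difference below is between a pair of libraries, has no replicate check and carries no p-value. Both drug comparisons use the same DMSO library. The lists held 9552 peaks for c-MYC in DMSO, 10378 in AMG510, 5431 in trametinib and 2966 for IgG, from 22700000 to 24800000 tags in each library, and the least a summit needed where the background was lowest was 7 or 8 tags. Fold enrichment is the tag pileup at the summit relative to the local background of the same library. A gene without a called peak may still be bound, because the pileup below the calling limit is not known.

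Most mitochondrial proteins are made in the cytosol and enter through the TOM complex of the outer membrane. Small Tim chaperones hand hydrophobic carriers to the TIM22 complex of the inner membrane, whereas proteins with a cleavable presequence pass through the TIM23 complex, are drawn into the matrix by an ATP-driven motor built around the chaperone mtHSP70, lose the presequence to a peptidase and fold with the help of chaperonins. MYC is known as an activator of genes for cell growth, mitochondrial genes among them, and binds with its partner MAX to the E-box.

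The canonical E-box CACGTG lay within 100 bp of the summit at 4 of the 24 DMSO promoter peaks of these genes (16.7%). It did so at 16.9% of all DMSO promoter peaks. Its reference sequence at the 4 peaks is shown first because it is the sequence MYC recognises. The E-boxes, in capitals, are given 5′ to 3′ on the strand of the gene named in GRCh38, each in a window of 30 bases.
HSPD1 (minus strand, chr2:197499591-197499620, shared with HSPE1): tgcgggttccatCACGTGcgacgcggatcc
HSPA9 (minus strand, chr5:138575403-138575432): cgcccctcacccCACGTGgttggaggtttc
GRPEL1 (minus strand, chr4:7067674-7067703): ggtacggtggccCACGTGcgcgtgtggtcc
TIMM9 (minus strand, chr14:58427162-58427191): cattactgctccCACGTGttctttcccatc
The motif was 24, 51, 17 and 14 bp from the DMSO summit at HSPD1, HSPA9, GRPEL1 and TIMM9. The first of these genes encodes the matrix chaperonin, the next pair parts of the import motor and the last a small Tim chaperone. In the gene models the motif is in intron 1 of HSPD1 and of GRPEL1, in the 5′ UTR of TIMM9, and 16 bp upstream of the canonical TSS of HSPA9.

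In DMSO, 23 of the 38 genes (60.5%, 95% Wilson interval 44.7 to 74.4) had a c-MYC promoter peak, and 24.2% of all protein-coding genes did. In AMG510 the number was 14 (36.8%, 23.4 to 52.7; 15.3% of all genes) and in trametinib 11 (28.9%, 17 to 44.8; 11.8% of all genes). IgG gave a promoter peak at 0 of 38, which allows a share of up to 7.89%, and at 0.559% of all genes. In at least 1 of the c-MYC libraries 28 of the 38 (73.7%, 58.0 to 85) had a peak, and 31.7% of all genes. These genes were thus above the share of all genes in each c-MYC list. Fewer of them had a peak in either drug list than in DMSO, and the share of all genes was lower there too. The trametinib list was also shorter than that of DMSO (5431 against 9552 peaks), whereas the AMG510 list held 10378. The intervals cover counting error only, and HSPD1 and HSPE1, which lie head to head, are counted through the same peaks.

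**Figure D1:**
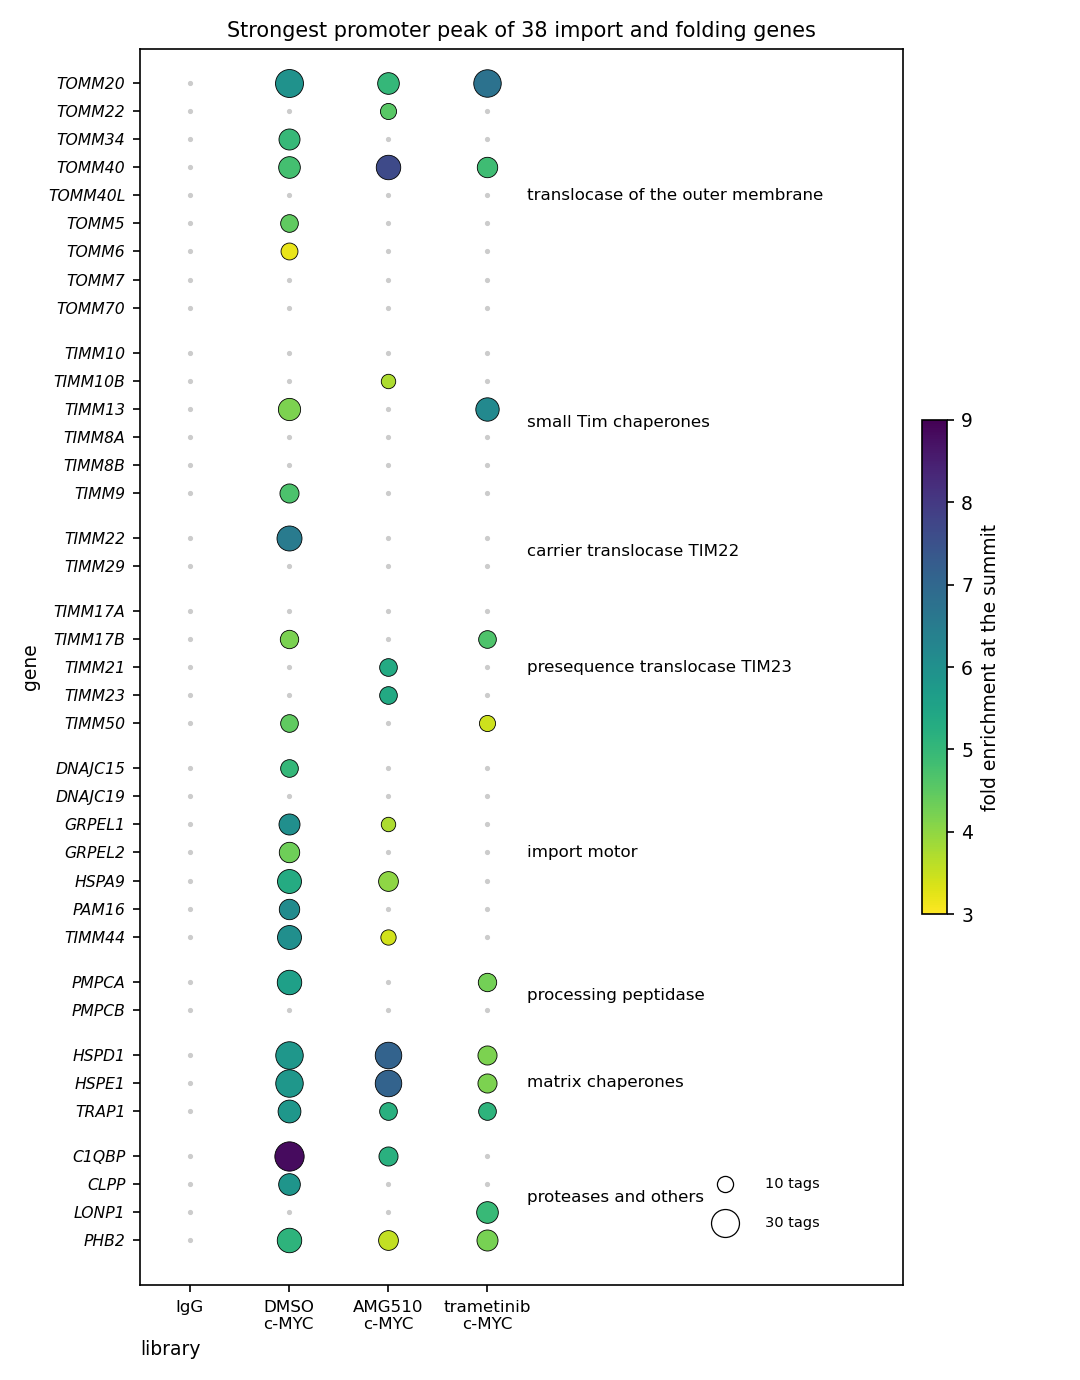
Strongest promoter peak of each of the 38 genes (rows, grouped by role) in the 4 libraries (columns), where colour gives the fold enrichment, symbol area the tags at the summit, and a small grey dot no called promoter peak. The IgG column is empty, and 23 of the 38 genes have a DMSO peak, 14 an AMG510 peak and 11 a trametinib peak.

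Under the drugs, the share of DMSO-bound genes that again had a peak was near that of other genes. AMG510 peaks were found at 10 of the 23 genes (43.5%, 25.6 to 63.2), where the share of all DMSO-bound genes was 43.0%. In trametinib 10 of the 23 did (43.5%), against 35.2% of all. A peak was called in both drug lists at 6 (26.1%, 12.5 to 46.5), against 23.1%, and in neither at 9 (39.1%, 22.2 to 59.2), against 44.9%. Each interval holds the share of all genes, so these genes could not be told from other DMSO-bound genes in how many were called again. Of the 15 genes without a DMSO peak, 5 had one under a drug (33.3%, 15.2 to 58.3), whereas 9.89% of all such genes did.

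**Figure D2:**
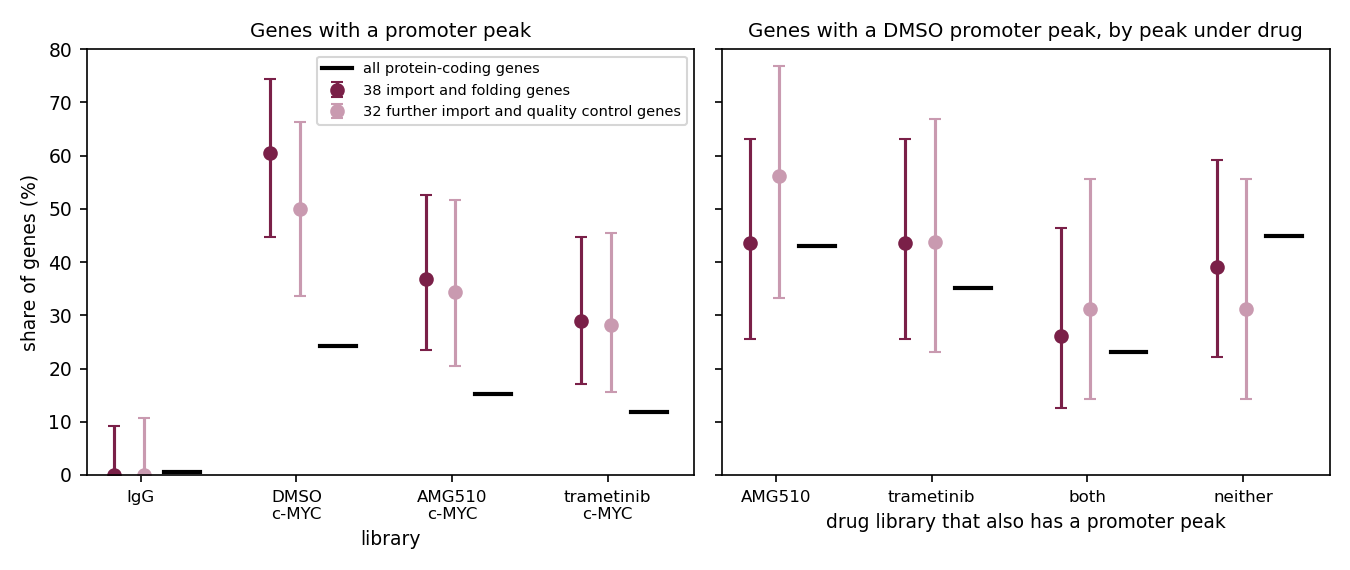
Left, share of genes (%) with a promoter peak in each library, and right, share of genes with a DMSO promoter peak that also had one in a drug library, for the 38 genes, 32 further genes of import and quality control, and all protein-coding genes (black lines), where bars are 95% Wilson intervals. In DMSO 60.5% of the 38 and 24.2% of all genes had a peak, and in the right panel the black lines fall inside the intervals of the 38.

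The 9 genes counted with the outer membrane translocase include that of the cytosolic co-chaperone TOMM34. Of these 9, 5 had a peak in DMSO, where 24.2% of all genes did, 3 in AMG510 (15.3% of all) and 2 in trametinib (11.8% of all). TOMM20, a receptor for presequences, carried one of the strongest peaks of the whole group. Its DMSO peak (chr1:235128421-235128795) had 30 tags at the summit (Poisson interval 20.2 to 42.8), the AMG510 peak (chr1:235128412-235128627) 18 tags (10.7 to 28.4) and the trametinib peak (chr1:235128304-235128784) 29 tags (19.4 to 41.6). Fold enrichment was 5.97 in DMSO, 5.01 in AMG510 and 6.73 in trametinib, above 85.6%, 78.1% and 94.4% of the peaks in the same list. All of these peaks had their summit in intron 1 and overlapped each other, and their tag intervals overlap too.

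The stretch that the TOMM20 peaks of all 3 c-MYC libraries had in common is shown without its 33 exonic bases, because it is one of the few sites here called under every treatment. It holds no canonical E-box. The capitals mark CACGCG, a variant E-box, read on the opposite strand as CGCGTG, 350 bp downstream of the TSS and 92, 0 and 37 bp from the summit in DMSO, AMG510 and trametinib.
TOMM20 intron 1 (minus strand, chr1:235128421-235128594): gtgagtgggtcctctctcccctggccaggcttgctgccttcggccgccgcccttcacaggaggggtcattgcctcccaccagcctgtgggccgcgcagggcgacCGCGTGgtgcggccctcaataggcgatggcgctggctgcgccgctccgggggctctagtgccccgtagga

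TOMM40, which encodes the pore of the translocase, also had a peak in each c-MYC library, with the summit in the 5′ UTR, 73 bp from the TSS in DMSO, 149 bp in AMG510 and 49 bp in trametinib. It was the gene of this group with the largest fold enrichment in AMG510, at 7.66 (23 tags, 14.6 to 34.5), above 98.3% of that list. In DMSO the fold enrichment was 4.80 (18 tags, 10.7 to 28.4) and in trametinib 4.87 (16 tags, 9.15 to 26.0). The tag intervals of the 3 libraries overlap, and a difference in pileup was not tested. TOMM34, a cytosolic co-chaperone, TOMM5 and TOMM6, small subunits of the translocase, had a peak in DMSO alone. Their summits held 17, 12 and 11 tags, with fold enrichments of 4.97, 4.46 and 3.19, the last above only 1.42% of the DMSO list. TOMM22, the central receptor, had a peak in AMG510 alone (10 tags, 4.80 to 18.4, fold enrichment 4.55) in intron 1. TOMM7, TOMM40L and the carrier receptor TOMM70 had none. The nearest DMSO summit to the TSS of TOMM70 was 6397 bp away.

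Among the 6 small Tim chaperones a DMSO peak was called at 2 (24.2% of all genes). An AMG510 peak was called at 1 (15.3% of all) and a trametinib peak at 1 (11.8% of all). Of the 2 TIM22 genes 1 had a peak, in DMSO. These counts are too small to be told from the shares of all genes. TIMM13, a partner of TIMM8A and TIMM8B in carrier transfer, had a broad DMSO peak of 817 bp (chr19:2426690-2427506) whose summit of 19 tags lay in the 3′ UTR of this short gene, 767 bp from the nearest coding TSS. In trametinib the broad peak was overlapped by a pair of narrower ones, with 21 tags (13.0 to 32.1, fold enrichment 6.18) in intron 2 and 19 tags (11.4 to 29.7, fold enrichment 5.62) in the 5′ UTR, 52 bp downstream of the canonical TSS. No TIMM13 peak was called in AMG510, where the nearest summit was 35597 bp away. TIMM9, which forms a hexamer with TIMM10, had a peak in DMSO alone (14 tags, fold enrichment 4.70), at a start it shares with KIAA0586. TIMM10B had one in AMG510 alone (8 tags, 3.45 to 15.8), close to the calling limit and shared with ARFIP2. TIMM8A, TIMM8B and TIMM10 had none. TIMM22, the channel for carriers, had a peak in DMSO alone (chr17:996952-997184), 77 bp upstream of the TSS, with 24 tags (15.4 to 35.7) and a fold enrichment of 6.52, above 90.2% of the list. The nearest summit was 52479 bp away in AMG510 and 29710 bp away in trametinib. Its partner TIMM29 had no peak.

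In the presequence translocase 2 of 5 genes had a peak in DMSO (24.2% of all genes), 2 in AMG510 (15.3%) and 2 in trametinib (11.8%). The genes were the same in DMSO and trametinib, and others were called in AMG510, all with few tags. TIMM50, the receptor of the complex, had overlapping peaks in DMSO (12 tags, fold enrichment 4.46) and trametinib (10 tags, 3.45). TIMM17B, a subunit of the channel, had a peak of 13 tags in intron 1 in DMSO and one of 12 tags in trametinib that lay upstream, 677 bp from the DMSO peak, and both peaks are shared with PQBP1. TIMM23, the channel itself, and TIMM21, a regulatory subunit, had a peak in AMG510 alone, each with 12 tags (6.20 to 21.0). Their fold enrichments of 5.38 and 5.35 were above 85.1% and 84.5% of the AMG510 list. The nearest DMSO summit was 57759 bp from the TSS of TIMM23 and 49541 bp from that of TIMM21. TIMM23 has a near-identical copy, TIMM23B, so reads may have been lost or split between them and its calls are uncertain, and the TIMM21 peak is shared with FBXO15. TIMM17A had no peak.

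Of the 7 genes of the import motor, 6 had a promoter peak in DMSO (24.2% of all genes), 3 in AMG510 (15.3%) and 0 in trametinib (11.8%). With 11.8% of all genes called, 0 of 7 is near the background. HSPA9, which encodes mtHSP70, had a DMSO peak (chr5:138575005-138575507) with 22 tags (13.8 to 33.3, fold enrichment 5.34) with the summit in its first exon and an overlapping AMG510 peak with 15 tags (8.4 to 24.7, fold enrichment 4.03). GRPEL1, its nucleotide exchange factor, had 17 tags in DMSO (9.90 to 27.2, fold enrichment 6.04) and 8 tags in AMG510 (3.45 to 15.8, fold enrichment 3.73), in intron 1. TIMM44, which tethers the motor to the channel, had a pair of DMSO peaks, with 22 tags in intron 1 (fold enrichment 6.03) and 18 tags upstream (fold enrichment 5.10), and the AMG510 peak of 9 tags overlapped the upstream one. For each of these genes the drug peak had fewer tags than DMSO, with overlapping counting intervals.

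PAM16, which regulates the motor, DNAJC15, a J-protein, and GRPEL2, a second exchange factor, had a peak in DMSO alone. PAM16 had 16 tags (9.15 to 26.0) and a fold enrichment of 6.14, above 87.2% of the list, in intron 1. DNAJC15 had 12 tags and a fold enrichment of 5.01, in the 5′ UTR, and GRPEL2 16 tags and a fold enrichment of 4.32, in intron 1. The J-protein DNAJC19 had none. In trametinib the nearest summit was 7308 bp from the TSS of TIMM44, 12549 bp from GRPEL2, 16111 bp from DNAJC15 and 32072 bp from HSPA9.

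The GRPEL1 peaks in DMSO and AMG510 shared 156 bases of intron 1, printed because a canonical E-box, CACGTG, lies directly beside the variant CACGCG (read as CGCGTG), which together form the run in capitals. The summits were 31 bp apart, and the canonical motif was 17 bp from the DMSO and 9 bp from the AMG510 summit.
GRPEL1 intron 1 (minus strand, chr4:7067636-7067791): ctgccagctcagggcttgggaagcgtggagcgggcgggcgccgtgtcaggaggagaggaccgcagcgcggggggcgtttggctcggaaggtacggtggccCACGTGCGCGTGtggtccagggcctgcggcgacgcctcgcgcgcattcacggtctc

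All 3 matrix chaperones had a promoter peak in each c-MYC library, where 24.2% (DMSO), 15.3% (AMG510) and 11.8% (trametinib) of all genes had one. HSPD1 and HSPE1 encode the chaperonin and its lid, are transcribed away from each other and share these peaks. In DMSO the shared peak (chr2:197499351-197500006) had 29 tags (19.4 to 41.6, fold enrichment 5.83), and in AMG510 an overlapping peak (chr2:197499622-197499952) had 27 tags (17.8 to 39.3). The AMG510 fold enrichment of 7.11 was above 97.6% of its list. The trametinib peak (chr2:197500437-197500599) was at another site, 430 bp from the DMSO peak, with 14 tags (7.65 to 23.5, fold enrichment 4.18), in intron 1 of HSPE1. So the pair counts as bound in trametinib by the promoter rule, but not at the DMSO site. AMG510 had a second HSPD1 peak of 13 tags, 16731 bp upstream of the canonical TSS, which counts through a longer transcript and lies at the start of MOB4.

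TRAP1, the mitochondrial member of the HSP90 family, had 20 tags in DMSO (12.2 to 30.9, fold enrichment 5.83, chr16:3717267-3717811). Its AMG510 peaks, with 10 and 12 tags, and its trametinib peak, with 12 tags (6.20 to 21.0), overlapped the DMSO peak on either side of the TSS. The variant CACGCG was found within 100 bp of a TRAP1 summit in every c-MYC library. The copy in that window was 15 bp upstream of the TSS in DMSO, 136 bp in AMG510 and 328 bp in trametinib. The difference between copies depends on the window. The AMG510 copy also lies inside the DMSO and trametinib peaks, and the trametinib copy lies just outside the trametinib peak. The copies are shown so that they can be compared.
TRAP1, DMSO (minus strand, chr16:3717525-3717554): cgtgtacggtccCGCGTGgctgcgcgcggc
TRAP1, AMG510 (minus strand, chr16:3717646-3717675): gtagtaccccgcCACGCGcccgagcaggca
TRAP1, trametinib (minus strand, chr16:3717838-3717867): cctccacaccctCGCGTGgatactgacatc

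Of the presequence peptidase, PMPCA, the subunit that recognises substrates, had a pair of DMSO peaks on either side of its TSS (18 and 23 tags, fold enrichments 4.46 and 5.61). A trametinib peak of 13 tags overlapped the upstream one, and all of these peaks are shared with ENTR1. PMPCB, the catalytic subunit, had no peak. C1QBP, an acidic matrix protein, had the largest fold enrichment of the group in DMSO, at 8.83, above 97.4% of the list. This peak (chr17:5438852-5439138) had 33 tags (22.7 to 46.3) with its summit in coding exon 1, and the overlapping AMG510 peak 14 tags (7.65 to 23.5, fold enrichment 5.20). No C1QBP peak was called in trametinib, where the nearest summit was 18844 bp away.

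PHB2, a scaffold of the inner membrane, had 23 tags in DMSO (14.6 to 34.5, fold enrichment 5.11) and 15 tags in an overlapping AMG510 peak (fold enrichment 3.55). Its trametinib peak, with 17 tags (9.90 to 27.2, fold enrichment 4.24), was 250 bp from the DMSO peak, upstream of the TSS, and all its peaks are shared with EMG1. CLPP, the proteolytic subunit of the matrix protease ClpXP, had a peak in DMSO alone (18 tags, 10.7 to 28.4, fold enrichment 5.88). LONP1, the other ATP-dependent matrix protease, had one in trametinib alone (18 tags, 10.7 to 28.4, fold enrichment 4.95), in coding exon 1 and shared with CATSPERD. LONP1 was also the gene nearest outside the 1 kb limit, with summits 2780 bp away in DMSO and 4156 bp in AMG510, whereas the farthest inside was the DMSO summit of TIMM13.

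Where DMSO and drug peaks overlapped at these genes, the drug peak mostly had fewer tags. Tags were extended to 177 bp in DMSO, 157 bp in AMG510 and 163 bp in trametinib, read as the narrowest peak of each list. A shorter extension lowers the pileup, so tags are not on the same scale between lists. How much of the ratios below comes from this was not tested. In AMG510 the 10 genes with a peak in both lists all had an overlapping one, and 83.7% of all such genes did. The drug peak had fewer tags in 9 of 10 overlapping pairs, and in 83.8% of all pairs. The median log2 ratio of tags was −0.74, against −0.49 over all promoters, and TOMM40, at 0.35, was the exception by tags. By fold enrichment, AMG510 was above DMSO at TOMM40 and at the HSPD1 and HSPE1 site (7.11 against 5.83). It was below DMSO at the other genes with an overlapping pair. In trametinib only 6 of the 10 genes had an overlapping peak (60%, against 85.9% of all such genes), since the peaks of HSPD1 and HSPE1, PHB2 and TIMM17B lay apart. Counted over peaks and with summits within 200 bp in place of overlap, 3 of 24 DMSO peaks (12.5%) had a trametinib partner, against 6 of 24 by overlap, because the summits at PMPCA, TIMM13 and TRAP1 were 342 bp or more apart. Over all promoter peaks the trametinib share was 23.8% by summits within 200 bp and 27.7% by overlap. For AMG510 the count stayed at 9 of 24 (37.5%), against 28.1% of all promoter peaks by summits and 33.1% by overlap. The trametinib peak had fewer tags in 5 of 7 overlapping pairs (71.4%), against 81.3% of all pairs. By fold enrichment, trametinib was above DMSO at TIMM13, TOMM20 and TOMM40, and below it at PMPCA, TIMM50 and TRAP1. The median log2 ratio of tags over the overlapping pairs was −0.17, against −0.44 over all promoters. A pair enters this count only where both peaks passed the calling limit, and no value for sites with a peak in 1 list is in the ratios.

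**Figure D3:**
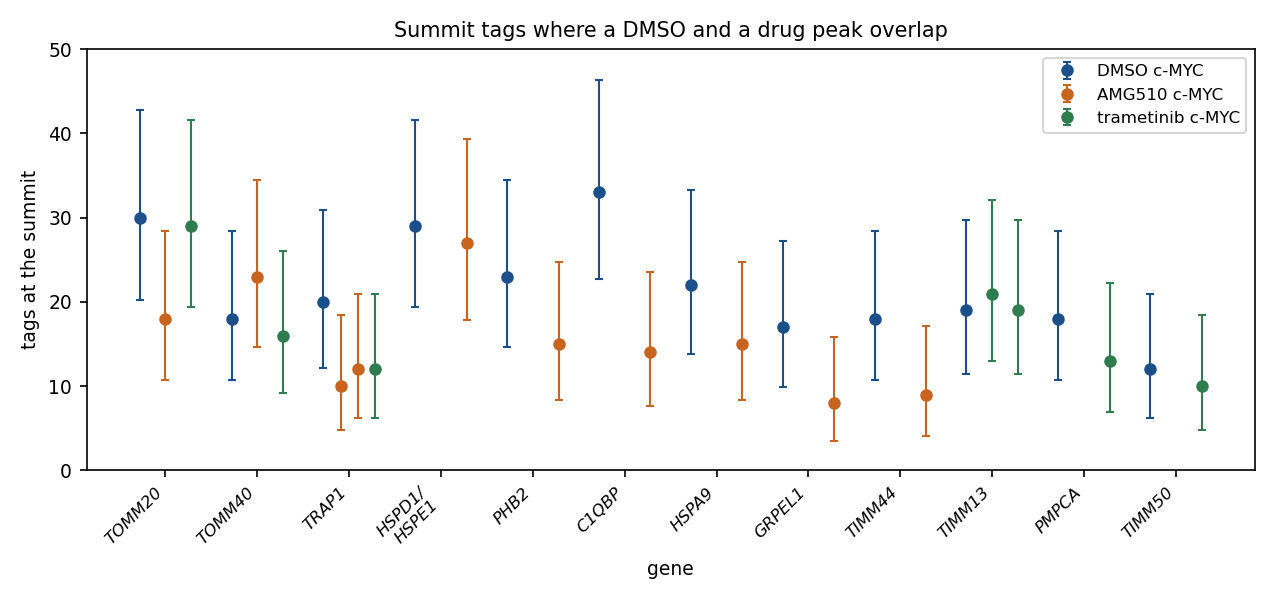
Tags at the summit (linear axis) in the c-MYC libraries at the genes where a DMSO and a drug peak overlap, with exact 95% Poisson intervals for counting error. At C1QBP 33 tags in DMSO stand beside 14 in AMG510, at TOMM40 18 beside 23, and at TOMM20 30 in DMSO beside 29 in trametinib, and the intervals of paired peaks overlap at each gene.

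By strength in DMSO, the genes with a peak again under a drug and those without were not cleanly parted. The 14 genes with a peak in at least 1 drug list had a median DMSO fold enrichment of 5.72 (4.19 to 8.83) and a median of 22 tags, and the 9 with a DMSO peak alone had 4.97 (3.19 to 6.52) and 16 tags. Among the genes in the top quartile of DMSO fold enrichment over all bound genes, from 5.98 upward, were C1QBP, TIMM22, PAM16, GRPEL1 and TIMM44. Of these 5, 3 had a promoter peak in AMG510, where 70.1% of all genes in this quartile did, and 0 in trametinib, where 62.6% did. In the next quartile, from 5.01 to 5.98, 6 of 9 had a peak in each drug list, against 41.9% of all genes for AMG510 and 34.4% for trametinib. In that quartile the trametinib peak did not overlap the DMSO peak at HSPD1, HSPE1 and PHB2, and at PMPCA it overlapped the weaker DMSO peak. TOMM20, at 5.97, and HSPD1 and HSPE1, at 5.83, lie just under the limit of the top quartile. They have nearly as many tags as C1QBP and had a promoter peak in trametinib, which for HSPD1 and HSPE1 is a shared one 430 bp from the DMSO peak. The count for the top quartile thus depends on where the limit falls and on ranking by fold enrichment, and no test was made.

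By the promoter rule every summit lay at most 1 kb from a coding TSS, so closeness to it was fixed in advance. The median distance of the summit from the nearest coding TSS was 128 bp in DMSO, 192 bp in AMG510 and 216 bp in trametinib, and over all promoter peaks it was 186, 189 and 177 bp. In DMSO 18 of 25 pairs of a gene and a peak (72.0%) had the summit downstream of the TSS, in AMG510 10 of 16 (62.5%) and in trametinib 5 of 12 (41.7%), where the shares over all promoters were 61.9%, 61.0% and 61.2%. By position on the canonical transcript, 9 of the 25 DMSO pairs were in an intron, 6 in a coding exon, 5 upstream, 4 in the 5′ UTR and 1 in the 3′ UTR. A start shared with another protein-coding gene was common, at 6 of 24 DMSO peaks (25%, against 13.6% of all promoter peaks), 5 of 15 in AMG510 (33.3%, against 13.0%) and 5 of 11 in trametinib (45.5%, against 14.4%). At those peaks the lists do not tell which gene the binding belongs to.

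**Figure D4:**
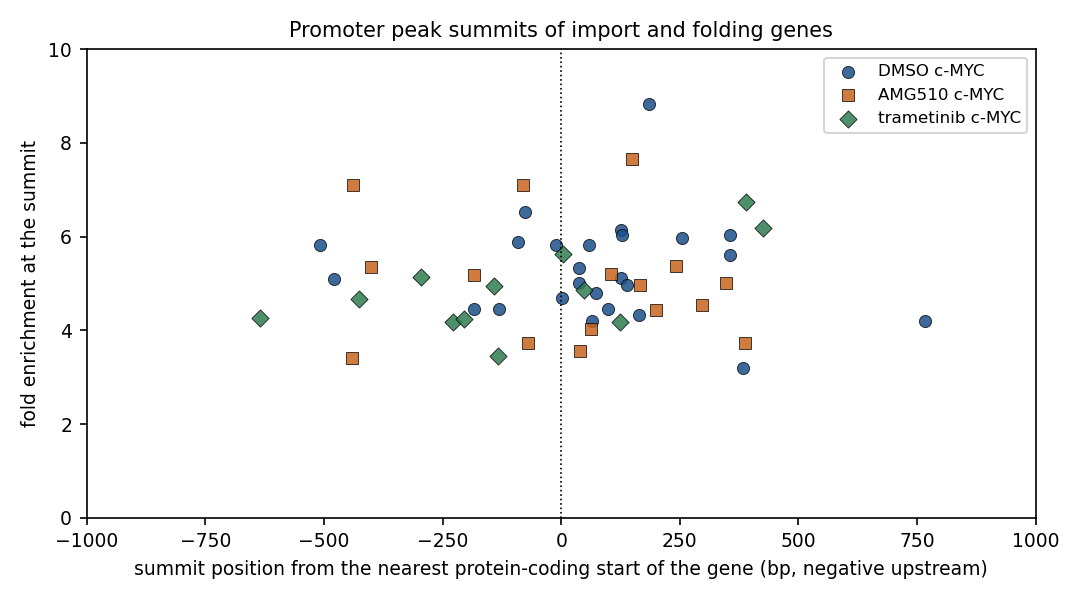
Position of each promoter peak summit of the 38 genes relative to the nearest protein-coding TSS (bp, negative upstream) against its fold enrichment, for the 3 c-MYC libraries. The median distance is 128 bp in DMSO, and the highest point is C1QBP in DMSO at 8.83.

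The promoters of these genes held an E-box at a higher share than all promoters. In the reference, 24 of the 38 (63.2%, 47.3 to 76.6) had a CACGTG within 1 kb of the canonical TSS, against 29.2% of all genes. Among those with a DMSO peak it was 18 of 23 (78.3%, 58.1 to 90.3), against 42.3% of all DMSO-bound genes. Among those without a DMSO peak it was 6 of 15 (40.0%, 19.8 to 64.3), an interval that holds the 25.1% of all such genes. The bound genes without one were TOMM6, TOMM40, PAM16, PHB2 and CLPP. Within 250 bp of the TSS, the median GC content was 63.4%, against 64.7% over all genes, and the ratio of observed to expected CpG 0.88, against 0.78.

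**Figure D5:**
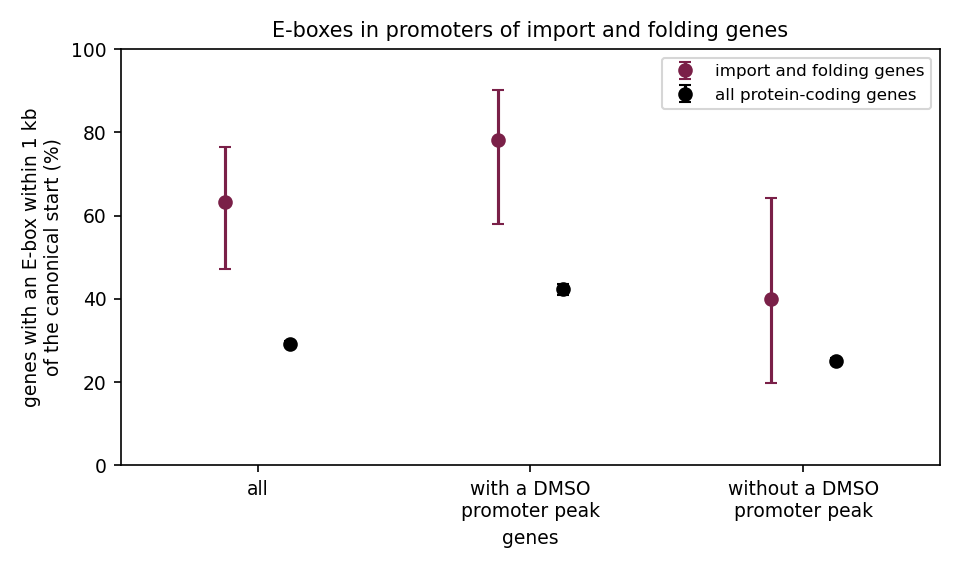
Share of genes (%) with a CACGTG within 1 kb of the canonical TSS, for the 38 genes and for all protein-coding genes, in all and split by a DMSO c-MYC promoter peak, where bars are 95% Wilson intervals. The 38 genes lie at 63.2% in all and at 78.3% among those with a DMSO peak, where all genes lie at 29.2% and 42.3%.

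Near the summit the counts were small. A CACGTG within 100 bp was present at 4 of 24 DMSO peaks of these genes (16.7%, 6.68 to 35.9), as at 16.9% of all DMSO promoter peaks. It was present at 5 of 15 AMG510 peaks (33.3%, 15.2 to 58.3, against 14.4%) and at 4 of 11 trametinib peaks (36.4%, 15.2 to 64.6, against 17.3%). The intervals of the 3 lists overlap, and that of trametinib holds the share of all its promoter peaks. With CACGCG counted too, on either strand, it was 11 of 24 in DMSO (45.8%, 27.9 to 64.9, against 37.0%). In AMG510 it was 10 of 15 (66.7%, 41.7 to 84.8, against 32.5%) and in trametinib 9 of 11 (81.8%, 52.3 to 94.9, against 35.9%). The intervals of the 3 lists overlap here too. The window can reach beyond the called peak, as at TRAP1 in trametinib. Anywhere inside the peak, a measure added after the values were seen, a CACGTG was present at 9 of 24 DMSO peaks (37.5%, 21.2 to 57.3), against 22.8% of all, at 3 of 15 in AMG510 (20.0%, against 17.2%) and at 4 of 11 in trametinib (36.4%, against 21.3%).

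The E-boxes near a drug summit that were more than 100 bp from any DMSO summit of the gene are shown for comparison with the first set, those of the AMG510 list first.
C1QBP (minus strand, chr17:5439080-5439109): cctttgcatctgCACGTGttcgcagtcgtt
TIMM44 (minus strand, chr19:7944013-7944042): ggtcggtggatcCACGTGcctgtaccacct
PMPCA (plus strand, chr9:136410025-136410054): gcggaggtgccaCACGTGgcgcgggaactg
TIMM13 (minus strand, chr19:2427131-2427160): gagtggtcactgCACGTGcgtagtctgcag
TIMM17B (minus strand, chrX:48898594-48898623): tgtcgaggctggCACGTGttaggaccatct
TIMM50 (plus strand, chr19:39481162-39481191): ccacctcccaccCACGTGggtgccggagga
At C1QBP and TIMM44 the motif was 42 and 77 bp from the AMG510 summit, and at PMPCA, TIMM13, TIMM17B and TIMM50 it was 33, 30, 37 and 83 bp from the trametinib summit. The motifs at C1QBP, TIMM44, PMPCA, TIMM13 and TIMM50 also lie inside a called DMSO peak, away from its summit. They are therefore not sites called under a drug alone. The motif at TIMM44 is outside the called AMG510 peak. The one at TIMM17B, 840 bp upstream of its TSS, lies in the trametinib peak that no DMSO peak overlapped.

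A second list of 32 genes of import, processing and quality control showed similar shares. A promoter peak was present at 16 of them in DMSO (50%, 33.6 to 66.4), 11 in AMG510 (34.4%, 20.4 to 51.7), 9 in trametinib (28.1%, 15.6 to 45.4) and 0 in IgG. DNAJC11, a protein of the cristae organising complex, AFG3L2, a subunit of an inner membrane protease, and the proteases OMA1, PARL and HTRA2 had one in each c-MYC library. DNAJC11 had fold enrichments of 6.79, 5.17 and 6.27 in DMSO, AMG510 and trametinib, and AFG3L2 6.55, 5.61 and 5.44. At OMA1 they were 5.28, 6.23 and 3.89, at PARL 5.63, 5.03 and 5.26, and at HTRA2 4.10, 3.36 and 5.24. A DMSO peak alone was found at AGK, a TIM22 subunit, CHCHD4, the import oxidoreductase of the intermembrane space, DNAJA3, a matrix J-protein, MIPEP, the intermediate peptidase, and MTCH1. GFER, the oxidase that works with CHCHD4, had a peak in both drug lists and not in DMSO, CLPX, the unfoldase partner of CLPP, in AMG510 alone, and HSCB, a co-chaperone of iron-sulphur cluster assembly, in trametinib alone. MTX1, MTX3, SPG7 and DNLZ had a peak in DMSO and AMG510, and IMMP2L and MAIP1 in DMSO and trametinib. The remaining 13 had none, among them PHB1, the partner of PHB2, the outer membrane insertase gene SAMM50 and the inner membrane insertase gene OXA1L.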

How the data were processed

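ChIP-seq peak lists of 4 libraries, 1 per group by the sample titles, were used. Per their methods and the processing notes, the authors trimmed reads (Trimmomatic 0.39), aligned them to GRCh38 (BWA 0.7.17), filtered them (SAMtools 1.9, Picard), turned them into intervals (bedtools 2.27.1), called peaks in each library at q = 0.05 (MACS2 2.2.7.1) and removed excluded regions. The deposited score is 10 times the −log10 q-value, and fold enrichment is a deposited ratio of summit pileup to local background. The deposited −log10 p-value and fold enrichment yielded a whole number of tags at the summit for 100% of peaks (tolerance 0.001). Both mates of a fragment may be tags, so Poisson intervals, which cover counting error only, are too narrow.

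Peaks were assigned to protein-coding TSSs of GENCODE 44 in Python 3.11.15 (pandas 2.3.3, pysam 0.24.0). Overlap means at least 1 bp. CACGTG, and CACGCG on both strands, were searched in GRCh38. Pileup recovery was checked on simulated data. All 38 genes are named, with full values for those with a peak in all 3 c-MYC lists, in DMSO alone in the upper part of the fold enrichments, or under a drug alone. Beyond them, only genes of the second list and of shared promoters are named. The genes and lists were chosen with earlier results of these data known. Alternatives were thresholds, list length, TSS set, windows, overlap and motif. What AMG510 inhibits is not reported here. Column 10, the summit offset, was used as deposited.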

Additional observations from a re-analysis of the deposited data

Results flagged for a closer look

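At TOMM20 the strongest promoter peak had a log2 ratio of fold enrichment to DMSO of −0.25 in AMG510 and 0.17 in trametinib. At HSPD1, and at HSPE1 through the same peaks, the ratio was 0.29 in AMG510 and −0.48 in trametinib, where the trametinib peak is at another site than the DMSO peak. Both were singled out because the drugs lie on opposite sides of DMSO. With 1 library per group, whether the drugs differ was not tested.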

How the results depend on the processing

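No paired analysis was possible because there were no replicates, and none could be left out. Alternatives gave 73 values for 11 results, of which 60 stayed within 1.5 times the reported count or within the interval of the reported share and 13 moved beyond. Counts and shares have no sign, so a change of direction was not assessed. A fold enrichment above 5 left 14 of the 38 genes with a peak in DMSO, 8 with one in AMG510 and 3 with one in trametinib, where 12.1%, 5.75% and 4.87% of all genes had one. Of those in DMSO, 5 were also in AMG510 (35.7%, against 29.1% of all DMSO-bound genes), 2 in trametinib (14.3%, against 27.1%) and 9 in neither (64.3%, against 59.3%). A score above 60 left 13 (DMSO), 3 (AMG510) and 2 (trametinib), where the shares of all genes were 9.81%, 2.98% and 2.93%, with 2 of those in DMSO also in AMG510 (15.4%, against 23.0%), 1 in trametinib (7.69%, against 23.2%), 10 in neither (76.9%, against 66.4%), and 2 under a drug alone. The number in neither list is among the 60, though its share of the DMSO genes was higher than the reported 39.1%. That reported share was below the 44.9% of all DMSO-bound genes, whereas under both thresholds it was above the share of all. For trametinib the reported 43.5% was above the 35.2% of all, whereas under both thresholds it was below. With E-boxes counted as CACGTG or CACGCG, the DMSO share was 45.8%, and for CACGTG anywhere inside the peak, chosen after seeing the data, 37.5%. The threshold filters remove peaks by construction. Scores are not comparable between lists, since they depend on the whole library. With 5431 peaks taken from each c-MYC list, the numbers in DMSO, AMG510 and trametinib were 19, 10 and 11 genes (18.1%, 10.8% and 11.8% of all genes), so that AMG510 no longer had more than trametinib. Summits of 7 to 14 tags have wide counting intervals, so a missing peak may lie just under the limit.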
